A study of Homo sapiens with 17 samples.

Results

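The 10 genes described here encode chains of interferon and interleukin receptors: IFNAR1, IFNAR2, IFNGR1, IFNGR2, IL10RB, IL18R1, IL18RAP, IL12RB2, IL2RG and IL15RA. They are 10 of the 26457 RefSeq genes listed in the deposited mRNA-seq table and were found by gene symbol. The set was chosen on earlier results of the same libraries, since IFNAR2, IL18R1, IL18RAP, IL12RB2 and IL2RG had been among the genes lower after depletion at 16 h without being called so at 0 h. For the 10 genes, all differences between mutp53-depleted and control cells are therefore descriptions, given without p-values, and so are the TNF-α differences of those 5 genes, whose selection used the same TNF-α-treated libraries. Where such a gene is said to be called, this states which side of the threshold its value lay on and supports nothing. IFNAR1, IFNAR2, IFNGR2 and IL10RB form a cluster on chromosome 21, and the other 6 genes lie on chromosomes 1, 2, 6, 10 and X. In hg19, the build of the table, they are IL12RB2 (chr1:67773047-67862583, plus strand), IL18R1 (chr2:102972743-103015235, plus), IL18RAP (chr2:103035250-103069024, plus), IFNGR1 (chr6:137518621-137540567, minus), IL15RA (chr10:5994334-6019574, minus) and IL2RG (chrX:70327254-70331481, minus).

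The cells were SW480, a human colon cancer line that expresses mutant p53 (mutp53). All cells carried a stably integrated hairpin and were grown with doxycycline, which induces it, and puromycin. In the control line the hairpin targets LacZ and in the mutp53-depleted line p53, and each line was treated with TNF-α at 12.5 ng/ml for 0 or 16 h. Each of the 4 groups had 2 libraries, A and B, which the study's methods call biological replicates, and the labels do not state whether either hairpin line is a single clone. Libraries held from 6108488 to 13809578 reads on genes, and the A library was the deeper in each group. Normalized reads are the reads on the exons of a gene, scaled by the authors to the same total in every library, and 1 read is worth between 0.6701 and 1.515 of them. Values are per gene and not per cell, and fewer cells with an mRNA cannot be told apart from less of it in each cell.

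Type I interferons signal through a receptor of the IFNAR1 and IFNAR2 chains, and interferon γ through IFNGR1, which binds it, and IFNGR2. IL10RB is a shared chain, which joins IFNLR1 to receive interferon λ, IL10RA to receive IL-10, IL22RA1 to receive IL-22 and IL20RA to receive IL-26. These receptors act through JAK kinases and STAT transcription factors. IL-18 is bound by IL18R1 and signals once IL18RAP joins, through MYD88 and IRAK kinases rather than STATs. IL12RB2 pairs with IL12RB1 in the IL-12 receptor, IL2RG is the common γ chain of the receptors for IL-2, IL-4, IL-7, IL-9, IL-15 and IL-21, and IL15RA binds IL-15 and presents it to IL2RB and IL2RG.

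IL18R1, IL18RAP and IL2RG had the largest TNF-α differences of the set, and the bases before their start sites are shown here together with those of IFNGR2, a chromosome 21 gene. NF-κB, which TNF-α activates, is known to bind sites of the form GGNNNTTCC. The sequences are the 250 bases upstream of the RefSeq start, 5′ to 3′ on the strand of the gene, from GRCh38.p14, and for IL18R1 and IL18RAP the most upstream of the listed starts is shown. Capitals mark every match on either strand to GGNNNTTCC, to the interferon-response-like letters GAAANNGAA, to the STAT-like letters TTCNNNGAA or to the AP-1-like letters TGANTCA.
IL18R1, chr2:102355546-102355795, plus strand: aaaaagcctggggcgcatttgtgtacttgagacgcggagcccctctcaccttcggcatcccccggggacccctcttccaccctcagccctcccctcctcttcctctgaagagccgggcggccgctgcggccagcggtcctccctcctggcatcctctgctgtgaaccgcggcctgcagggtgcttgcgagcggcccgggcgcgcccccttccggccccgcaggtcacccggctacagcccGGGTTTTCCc
IL18RAP, chr2:102418371-102418620, plus strand: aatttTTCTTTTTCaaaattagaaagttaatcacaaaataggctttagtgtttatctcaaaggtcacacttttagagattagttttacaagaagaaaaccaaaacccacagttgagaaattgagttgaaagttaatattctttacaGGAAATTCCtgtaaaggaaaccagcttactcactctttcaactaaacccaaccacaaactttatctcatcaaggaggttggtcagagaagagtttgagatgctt
IL2RG, chrX:71111578-71111827, minus strand: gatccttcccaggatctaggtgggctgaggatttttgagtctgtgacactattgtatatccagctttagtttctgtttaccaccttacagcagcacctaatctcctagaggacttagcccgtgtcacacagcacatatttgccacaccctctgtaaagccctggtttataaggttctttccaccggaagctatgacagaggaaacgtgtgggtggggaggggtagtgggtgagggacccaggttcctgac
IFNGR2, chr21:33403163-33403412, plus strand: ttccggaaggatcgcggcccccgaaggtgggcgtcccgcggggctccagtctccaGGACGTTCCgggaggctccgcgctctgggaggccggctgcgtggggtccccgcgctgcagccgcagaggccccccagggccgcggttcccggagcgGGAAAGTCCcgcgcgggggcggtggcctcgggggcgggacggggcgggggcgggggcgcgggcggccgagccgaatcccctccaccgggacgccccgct
In IL18R1 the capitals are 1 match to GGNNNTTCC that begins at position -10 from the start. In IL18RAP a GGNNNTTCC match begins at position -104 and a GAAANNGAA match at position -245, both in a window with 32.4% G and C and no CpG. IFNGR2 held 2 matches to GGNNNTTCC in a window with 80.4% G and C and 37 CpG. No base in these windows belongs to more than 1 match. The IL2RG window held no match to any of the 4 sets of letters, which says only that these letters are not within the 250 bases shown. The table gave 18 windows for 9 of the 10 genes, and IFNAR2 was the gene not matched. The windows of IFNAR1 and IL10RB, also chromosome 21 genes, held no match to any of the 4 sets of letters. The other IL18R1 window held a match to GAAANNGAA and none to GGNNNTTCC. GGNNNTTCC was found in 6 of the 18 windows and in 4 of the 9 genes, beside 17.1% of all 35116 promoter windows. GAAANNGAA was in 3 windows beside 6.88% of all, TTCNNNGAA in 1 beside 6.57%, and TGANTCA in 3 windows of IL15RA beside 6.57%. The windows of a gene overlap in part, and a match is a description of the letters and not a binding site.

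The chromosome 21 receptors and IFNGR1 and IL15RA were expressed in every library, whereas IL18R1 and IL18RAP had almost no reads before TNF-α. Levels are compared between genes as normalized reads per kb of exon. In control cells at 0 h, IFNGR2 had 199 normalized reads per kb (179 and 218 in the 2 libraries) and IFNAR1 184 (181 and 187), ranges that overlap. IL15RA at 152 and IL10RB at 148 overlapped each other, as did IFNAR2 at 115 and IFNGR1 at 111. IL12RB2 had 3.79 normalized reads per kb, IL2RG 2.92, IL18R1 0.506 and IL18RAP 0.137, and none of these overlapped its neighbour in that order. The last 3 rest on 6 and 3 reads for IL2RG, 3 and 1 for IL18R1 and 1 and 0 for IL18RAP, so their order is a description. After 16 h of TNF-α, IFNGR2 was still the gene with the highest level at 354 normalized reads per kb, IFNGR1 was next at 273 (232 and 315), a range that overlapped that of IFNAR1 (249.9 and 259), which in turn lay within that of IL15RA (158 and 265). IL2RG had 51.0 and IL18R1 24.2, and IL12RB2 ranked below both of them at 6.93. In mutp53-depleted cells IFNGR2 also had the highest level at both times, at 165 and 240.4 normalized reads per kb.

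**Figure D1:**
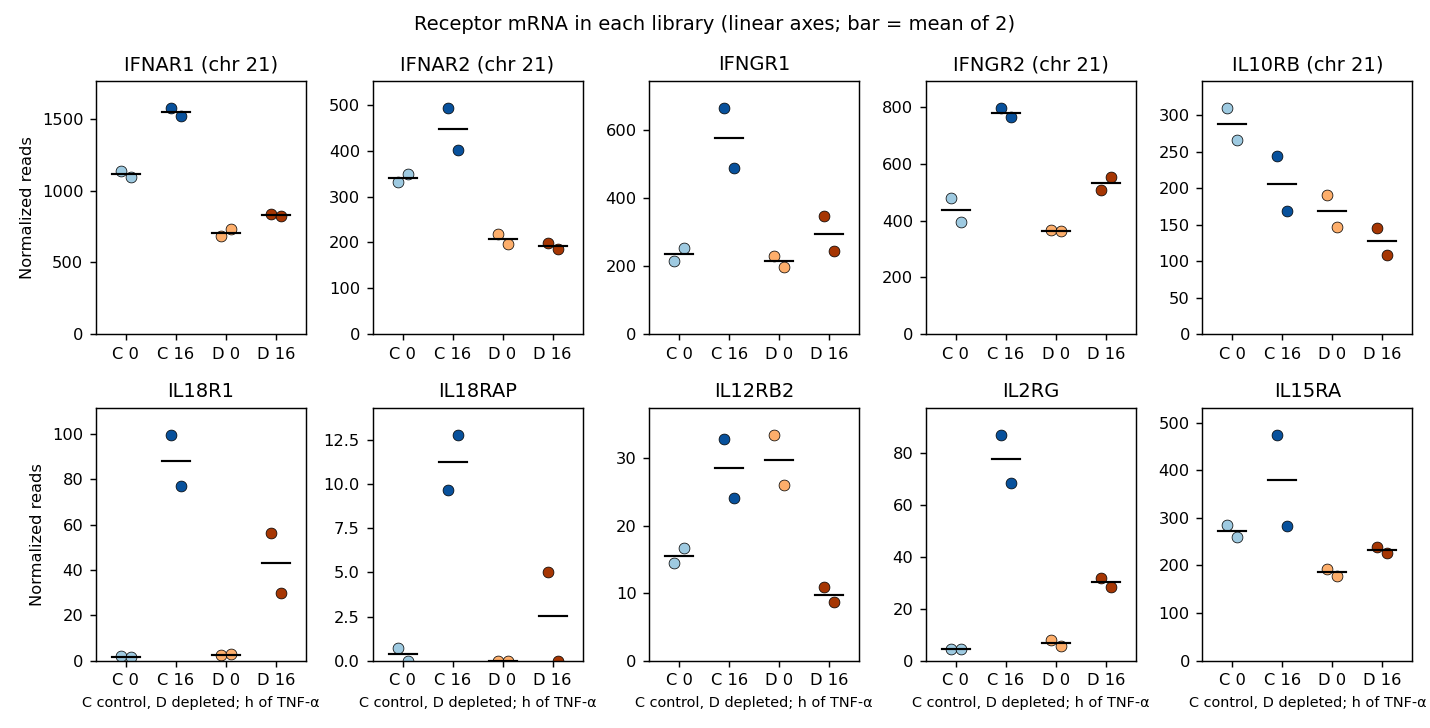
Normalized reads of each receptor gene (linear vertical axes, a different scale in each panel) in control (C) and mutp53-depleted (D) cells at 0 and 16 h of TNF-α. Points are libraries and bars are means of 2. IL2RG, IL18R1 and IL18RAP are near 0 before TNF-α, and IL12RB2 is high in the control line at 16 h and in depleted cells at 0 h.

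To ask which receptor mRNAs TNF-α changed, 16 h was compared with 0 h within each hairpin line with limma on log2(normalized reads + 1), over 14800 genes whose mean reached 2.5. Calls needed a change of 2-fold or more together with an adjusted p (Benjamini-Hochberg) under 0.05. In control cells 4 of the 10 receptor genes were called, all of them higher (IFNGR1, IL2RG, IL18R1 and IL18RAP), where 2.97% of all tested genes were called higher and 4.27% lower. In mutp53-depleted cells IL2RG and IL18R1 were called higher, where 1.86% of tested genes were, and IL12RB2 was called lower, where 4.50% were. All 10 genes passed the filter, but IL18R1 and IL18RAP would not have passed on the 0 h libraries alone, so a difference was built into their presence. Of the genes called in control cells, IFNGR1 is the one outside the 5 on which the set was chosen, and nothing is read from these counts against the shares of all genes. The median log2 fold change over the set was 0.83 in the control line and 0.38 in mutp53-depleted cells, beside -0.05 and -0.06 over all tested genes.

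IL18R1, the ligand-binding chain of the IL-18 receptor, changed most. It had 2.18 and 1.51 normalized reads in the control line at 0 h (3 and 1 reads) and 99.6 and 76.8 at 16 h. In mutp53-depleted cells it had 2.68 and 2.74 at 0 h (4 and 2 reads) and 56.2 and 29.6 at 16 h. The 16 h libraries of either line were far above all 0 h libraries, and both depleted libraries at 16 h were below both control libraries at 16 h. The ratio of 16 h to 0 h was 46.0 in control cells (95% exact interval of the counts 17.6 to 171) and 16.8 in mutp53-depleted cells (7.44 to 47.0), intervals that overlap and cover counting error only.

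IL18RAP, the signalling partner chain, is encoded beside IL18R1 and was seen in few reads. It had 0.73 and 0 normalized reads in the control line at 0 h (1 and 0 reads), 9.67 and 12.8 at 16 h (10 and 9 reads), no read in the depleted line at 0 h, and 5.03 and 0 at 16 h (6 and 0 reads). Both control libraries at 16 h were above every other library. No fold change is given in mutp53-depleted cells. The call in control cells (log2 fold change 3.21 ± 0.88, SE) was lost without control 0 h replicate B (2.81), without control 16 h replicate B (3.02), with a pseudocount of 0.1 (5.28) and with DESeq2 (4.54). The IL18R1 difference between 16 h and 0 h kept its call in both lines under all 17 alternatives.

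IL2RG, the common γ chain, had 4.35 and 4.54 normalized reads in the control line at 0 h and 87.0 and 68.3 at 16 h. In mutp53-depleted cells it had 8.04 and 5.48 at 0 h and 31.9 and 28.4 at 16 h. The 16 h groups lay above the 0 h groups in both lines and did not overlap each other. On the log2 scale the TNF-α difference was 3.84 ± 0.36 (SE) in the control line and 2.02 ± 0.36 in mutp53-depleted cells. From the reads alone the ratio was 18.0 (exact interval 9.20 to 40.2) in the control line and 4.23 (2.41 to 7.86) in mutp53-depleted cells. These intervals cover counting error only and leave out the variation between libraries. The difference between the lines was not called (interaction -1.82 ± 0.51), and IL2RG is a gene on which the set was chosen.

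IFNGR1 and IFNGR2, the chains of the interferon γ receptor, were both higher after TNF-α. IFNGR1 had 216 and 253 normalized reads in the control line at 0 h and 665 and 489 at 16 h, a log2 fold change of 1.28 ± 0.16 (SE, limma adjusted p = 5.9e-06). In mutp53-depleted cells it had 231 and 197 at 0 h and 346 and 244 at 16 h, a log2 fold change of 0.45 ± 0.16 (limma adjusted p = 0.045, and between 0.0066 and 0.47 over the alternatives). The control groups were well separated, whereas the depleted 16 h B library was only just above the depleted 0 h A library. IFNGR2 had 482 and 397 normalized reads in the control line at 0 h and 798 and 767 at 16 h, and 366 and 363 in the depleted line at 0 h and 508 and 555 at 16 h. Its groups did not overlap in either line, and the log2 fold changes were 0.84 ± 0.10 (limma adjusted p = 3.0e-06) and 0.54 ± 0.10 (limma adjusted p = 4.0e-04), both under the 2-fold limit for a call.

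The type I interferon receptor chains moved less. IFNAR1 had 1139 and 1098 normalized reads in the control line at 0 h, 1576 and 1519 at 16 h, 685 and 731 in the depleted line at 0 h, and 837 and 821 at 16 h. The 4 groups of IFNAR1 did not overlap, and its log2 fold changes with TNF-α were 0.47 ± 0.07 in control cells (limma adjusted p = 8.7e-05) and 0.23 ± 0.07 in mutp53-depleted cells (limma adjusted p = 0.027, and between 0.0059 and 0.22 over the alternatives). IFNAR2 had 332 and 350 normalized reads in the control line at 0 h, 493 and 403 at 16 h, 218 and 197 in the depleted line at 0 h, and 199 and 185 at 16 h. Control libraries were higher at 16 h than at 0 h, with a log2 difference of 0.39 ± 0.12, whereas the depleted groups overlapped, with a difference of -0.11 ± 0.12.

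IL10RB had lower values after TNF-α in both lines, by amounts under the 2-fold limit, and only that in control cells passed the adjusted p. It had 310 and 267 normalized reads in the control line at 0 h, 244 and 169 at 16 h, 191 and 147 in the depleted line at 0 h, and 146 and 109 at 16 h. The libraries of 16 h lay below those of 0 h within each line. The log2 fold change was -0.50 ± 0.18 in control cells, where the limma adjusted p rounds to 0.05 and lay just under it. It was -0.41 ± 0.18 in mutp53-depleted cells (limma adjusted p = 0.11). Over the alternatives the log2 fold change lay between -0.76 and -0.24 in the control line (adjusted p between 0.006 and 0.46) and between -0.62 and -0.20 in mutp53-depleted cells (0.022 to 0.58). The A library had the higher IL10RB value in each of the 4 groups and was also the deeper one, and the part of depth in this was not tested.

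IL15RA, which presents IL-15, had 284 and 261 normalized reads in the control line at 0 h, 475 and 283 at 16 h, 192 and 178 in the depleted line at 0 h, and 238 and 226 at 16 h. The control 16 h B library lay within the range of the control 0 h libraries, and the A library far above it. Its log2 fold changes with TNF-α were 0.43 ± 0.17 in control cells (limma adjusted p = 0.068, with log2 values between 0.06 and 0.80 over the alternatives) and 0.32 ± 0.17 in mutp53-depleted cells (limma adjusted p = 0.17), and neither passed the test.

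IL12RB2, the signalling chain of the IL-12 receptor, had TNF-α differences of opposite sign in the 2 lines. It had 14.5 and 16.7 normalized reads in the control line at 0 h (20 and 11 reads) and 32.9 and 24.2 at 16 h (34 and 17 reads). In mutp53-depleted cells it had 33.5 and 26.1 at 0 h (50 and 19 reads) and 10.9 and 8.64 at 16 h (13 and 7 reads). Both control libraries were higher at 16 h and both depleted libraries were lower, so that the depleted cells had the higher level at 0 h and the lower level at 16 h. The log2 difference with TNF-α was 0.82 ± 0.35 in control cells, which was not called, and -1.51 ± 0.35 in mutp53-depleted cells, which was. Without mutp53-depleted 0 h replicate A, the latter was -1.34 and was not called.

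**Figure D2:**
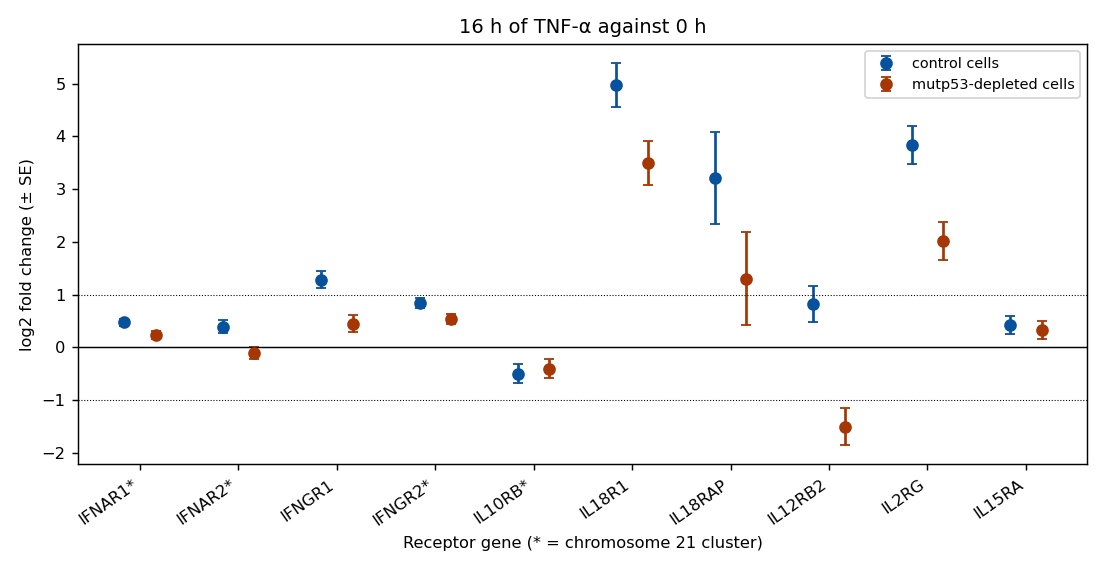
Log2 fold change (± SE, limma) between 16 and 0 h of TNF-α for each receptor gene in control cells (blue) and mutp53-depleted cells (brown), with dotted lines at a 2-fold change and asterisks for the chromosome 21 cluster. IL18R1 reaches 4.97 in the control line and 3.50 in mutp53-depleted cells, and IL12RB2 is above 0 in the control line and below 0 in mutp53-depleted cells.

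The second comparison set mutp53-depleted against control cells at each time. At 0 h none of the 10 genes was called by limma (0 also with edgeR and with DESeq2). Of all tested genes 5.89% were called higher and 9.55% lower. In limma 6 of the receptor genes had an adjusted p under 0.05 and missed the call by the 2-fold limit alone. The share of all genes under that p alone is not given here. At 16 h all 10 log2 fold changes were below 0, as were those of 50.3% of all tested genes, and 5 receptor genes were called lower, where 10.2% of tested genes were called lower and 5.03% higher. Those 5 are the genes on which the set was chosen, so their calls at 16 h and their lack of a call at 0 h are both properties of the choice. The count at 16 h was 2 without control 16 h replicate A (IFNAR2 and IL12RB2), 3 without mutp53-depleted 16 h replicate B and 3 with a pseudocount of 0.1. In both of the latter the 3 were IFNAR2, IL12RB2 and IL2RG.

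The median log2 difference over the set was -0.33 at 0 h and -1.02 at 16 h, beside 0.03 and -0.01 over all tested genes. At 0 h the chains of the type I interferon receptor were lower by similar amounts, with -0.66 ± 0.07 for IFNAR1 and -0.71 ± 0.12 for IFNAR2, and at 16 h IFNAR2 was at -1.21 ± 0.12 and IFNAR1 at -0.90 ± 0.07. IL10RB (-0.78 ± 0.18 and -0.69 ± 0.18) and IL15RA (-0.55 ± 0.17 and -0.66 ± 0.17) had much the same difference at both times. The chains of the interferon γ receptor were nearer to control cells at 0 h, at -0.13 ± 0.16 for IFNGR1 and -0.26 ± 0.10 for IFNGR2, and at 16 h IFNGR1 was at -0.97 ± 0.16 and IFNGR2 at -0.56 ± 0.10. IL18R1, IL2RG and IL12RB2 had log2 differences of 0.39 ± 0.42, 0.49 ± 0.36 and 0.88 ± 0.35 at 0 h and -1.08 ± 0.42, -1.33 ± 0.36 and -1.45 ± 0.35 at 16 h. For IL18RAP the reads at 16 h, summed over the libraries of each group, gave a ratio of 0.274. It had 6 and 0 reads in mutp53-depleted cells, so those reads came from the A library alone, and 10 and 9 in control cells.

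**Figure D3:**
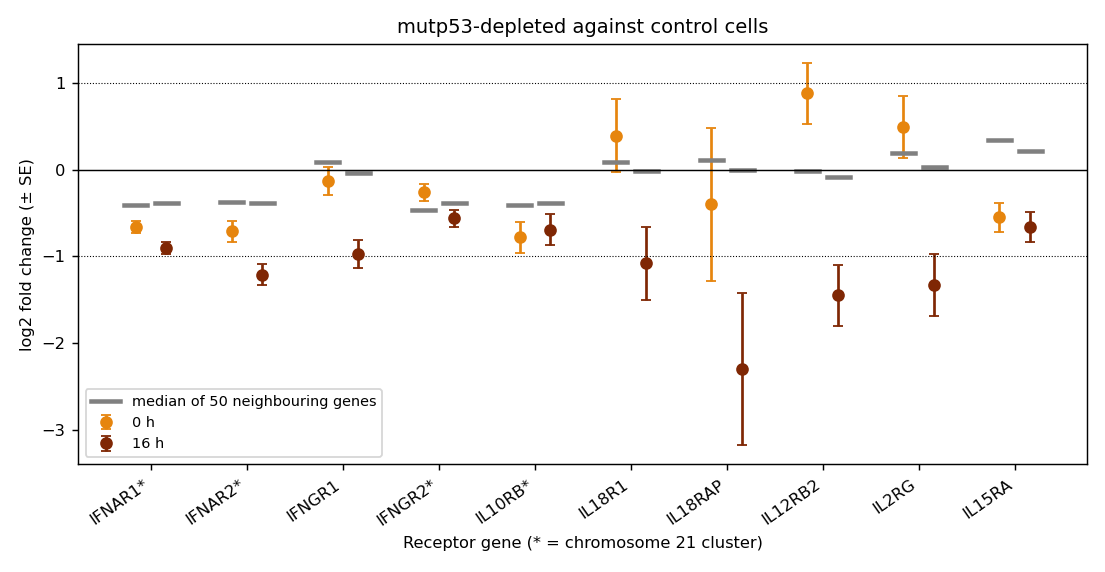
Log2 fold change (± SE, limma) of mutp53-depleted against control cells at 0 h (orange) and 16 h (brown), with the median of the 50 nearest tested genes on the chromosome as grey bars and dotted lines at a 2-fold change. The neighbours of the 4 chromosome 21 genes (asterisks) have medians between -0.46 and -0.37, those of IL15RA are above 0, and all 10 receptor genes are below 0 at 16 h.

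The interaction, which subtracts the depletion effect at 0 h from that at 16 h, was called at the adjusted p alone. Of all tested genes 2.21% had a called interaction below 0 and 0.655% above 0. IL12RB2 was the receptor gene called, at -2.33 ± 0.49 on the log2 scale, and a value below 0 follows from the way in which the set was chosen. It was not called without control 16 h replicate A (-2.12), without mutp53-depleted 0 h replicate A (-2.16) or by DESeq2 (-2.49), which gave it no adjusted p. The other values were -1.91 ± 1.25 for IL18RAP, -1.82 ± 0.51 for IL2RG, -1.47 ± 0.59 for IL18R1, -0.84 ± 0.22 for IFNGR1, -0.50 ± 0.17 for IFNAR2, -0.30 ± 0.14 for IFNGR2, -0.24 ± 0.10 for IFNAR1, -0.10 ± 0.24 for IL15RA and 0.09 ± 0.26 for IL10RB. IFNGR1 was also called with edgeR, with the replicate block, with a pseudocount of 5, without control 16 h replicate B and without mutp53-depleted 16 h replicate A.

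The 4 chromosome 21 genes lie side by side on the plus strand within 208 kb of hg19 (chr21:34602200-34809828), in the order IFNAR2, IL10RB, IFNAR1 and IFNGR2. With TNF-α the cluster had a median log2 difference of 0.43 in control cells (range -0.50 to 0.84) and the 6 receptor genes elsewhere 2.24 (range 0.43 to 4.97). In mutp53-depleted cells the medians were 0.06 (range -0.41 to 0.54) and 0.87 (range -1.51 to 3.50). The difference of these medians in mutp53-depleted cells, -0.81, was -0.21 without mutp53-depleted 16 h replicate A and -1.31 without replicate B of that group. It was -0.39 with a mean of at least 10, -0.41 with a pseudocount of 5, -1.25 with one of 0.1, -1.22 with DESeq2 and -1.21 with edgeR. That in control cells, -1.82, was -0.86 when genes with a mean under 10 were left out, which removes IL18RAP, and -1.01 with a pseudocount of 5. With depletion the order changed between the times: at 0 h the cluster was at -0.69 (range -0.78 to -0.26) and the receptors elsewhere at 0.13 (range -0.55 to 0.88), and at 16 h the cluster was at -0.79 (range -1.21 to -0.56) and the receptors elsewhere at -1.20 (range -2.30 to -0.66). At 16 h the cluster was higher than the receptors elsewhere by 0.41, and by 0.11 without mutp53-depleted 16 h replicate B. The corresponding medians of the interaction were -0.27 and -1.65, a difference of 1.38 that was 0.53 without mutp53-depleted 16 h replicate B. The genes were chosen with these differences known, and no test of them was made. Of the genes chosen as lower at 16 h without a call at 0 h, only IFNAR2 is in the cluster. IL18R1, IL18RAP, IL12RB2 and IL2RG are receptors elsewhere, so the changed order and the interaction difference are in part properties of the choice.

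The neighbours of the cluster were lower after depletion as well. Of the 50 tested genes around it, 45 were lower at 0 h and 47 at 16 h, with medians of -0.36 and -0.37, and all 145 tested chromosome 21 genes outside the cluster had medians of -0.52 and -0.50. The cluster median less that of its neighbours was -0.32 at 0 h and -0.42 at 16 h, and 15 and 11 of the 50 neighbours lay lower still. All 12 other tested genes within 500 kb were lower at both times, among them TMEM50B (-1.19 at 0 h and -1.61 at 16 h), LINC00649 (-0.63 and -1.17) and SON, which encodes a splicing cofactor (-0.49 and -0.39). TMEM50B overlaps the end of IFNGR2 on the opposite strand, and the libraries kept strand. With the median of each gene's neighbours removed from the depleted libraries, the cluster less the receptors elsewhere was -0.33 at 0 h in place of -0.82 and 0.80 at 16 h in place of 0.41. In that setting IFNAR2 was at -0.83 at 16 h and was not called, and IFNGR2 at 0 h was at 0.20 in place of -0.26. TNF-α left the neighbours near 0, with medians of -0.06 in control and -0.04 in mutp53-depleted cells.

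**Figure D4:**
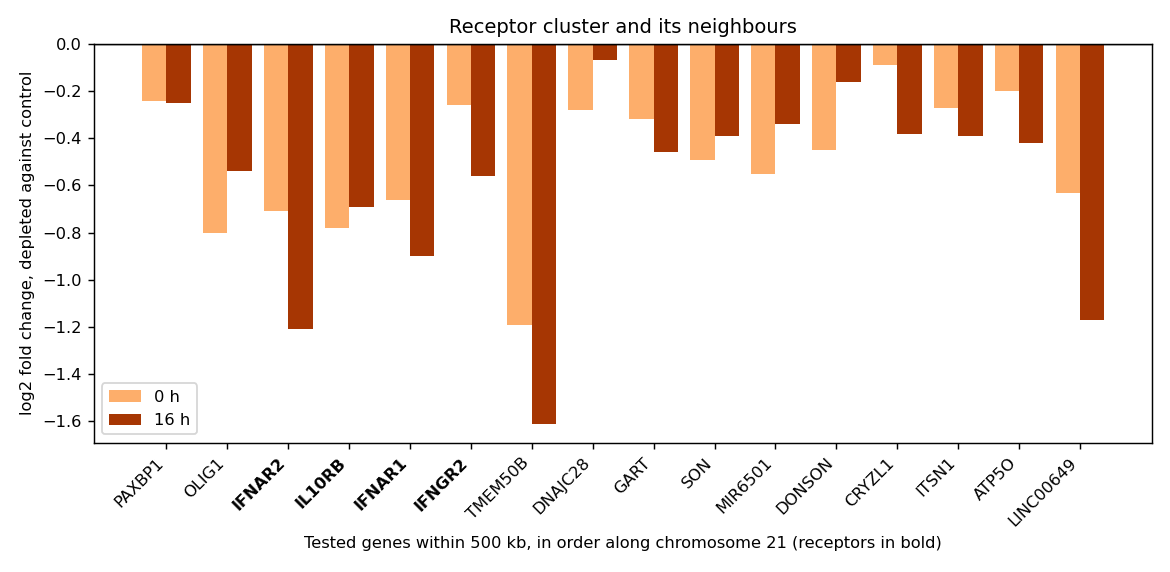
Log2 fold change of mutp53-depleted against control cells at 0 h (light bars) and 16 h (dark bars) for the tested genes within 500 kb of the cluster, in chromosome order, with the 4 receptor genes in bold. Every bar is below 0, the lowest are those of TMEM50B, and IFNAR2 is the lowest of the receptor genes at 16 h.

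Of 26 genes in a list of ligands of these receptors and related cytokines, 7 were tested. IL10, whose product is received by IL10RA and IL10RB, was seen in every library, with means of 268 and 221 normalized reads in the control line at 0 and 16 h and 274 and 208 in mutp53-depleted cells. No read in any library was seen for IFNG, IFNB1, IFNA1, IL2 or IL4. IL18 had 1 read over all 8 libraries. TNF-α raised 4 genes of the list in the control line and 3 in mutp53-depleted cells. The shares of all tested genes called higher were 2.97% and 1.86%. Among the raised genes, IL24 and IL23A encode cytokines whose receptors hold none of the 10 chains. IL24, a cytokine of the IL-10 family, rose by 1.64 ± 0.20 and 1.93 ± 0.20 on the log2 scale, and IL23A, the specific subunit of IL-23, by 3.56 ± 0.19 and 2.81 ± 0.19. EBI3, a subunit of IL-27 and IL-35, went from 0 and 1 reads to 105 and 66 reads in the control line and from 0 and 2 to 28 and 17 in mutp53-depleted cells. IL12A was called in the control line at 1.50 ± 0.50 and had 1.31 ± 0.50 in mutp53-depleted cells. At 16 h depletion left IL23A (-1.67 ± 0.19) and EBI3 (-2.09 ± 0.60) lower and IL7 higher (0 and 1 reads in the control line, 11 and 5 in mutp53-depleted cells). Of all tested genes 10.2% were called lower and 5.03% higher in that comparison. EBI3 and IL7 passed the filter only through the groups where they were high, so a difference was built into their presence.

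The partner chains differed from complex to complex. IFNLR1, the partner of IL10RB for interferon λ, had 26.3 normalized reads per kb in the control line at 0 h and 16.5 in the depleted line, and 11.4 in the depleted line after TNF-α. IL10RA had at most 2.95 normalized reads per kb as the mean of a group, and IL20RA fell with TNF-α in both lines (-1.03 ± 0.23 and -1.07 ± 0.23) and with depletion at both times (-1.51 ± 0.23 and -1.55 ± 0.23). IL12RB1, the partner of IL12RB2, had 1 read over all libraries, and IL23R and STAT4, the STAT of the IL-12 receptor, had none. Of the partners of IL2RG, IL2RB had 27, 5, 24 and 17 reads in the control libraries and 296, 119, 424 and 219 in the mutp53-depleted libraries, a log2 difference of 3.77 ± 0.30 at 0 h and 3.65 ± 0.30 at 16 h (limma adjusted p = 8.5e-09 and 1.1e-08), so that it stood higher in mutp53-depleted cells where IL2RG at 16 h was lower. IL7R had no read at 0 h in either line, 20 and 11 reads in the control line at 16 h and 37 and 15 in the depleted line at 16 h. IL4R was lower with depletion (-1.61 ± 0.17 and -1.12 ± 0.17) and was higher after TNF-α in both lines, by 0.70 ± 0.17 in the control line (limma adjusted p = 0.0041, under the 2-fold limit) and by 1.19 ± 0.17 in mutp53-depleted cells, where it was called. These differ by 0.50 ± 0.24 (interaction, limma adjusted p = 0.37). IL12RB1, IL23R, IL10RA and IFNLR1 were named after their values were seen.

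**Figure D5:**
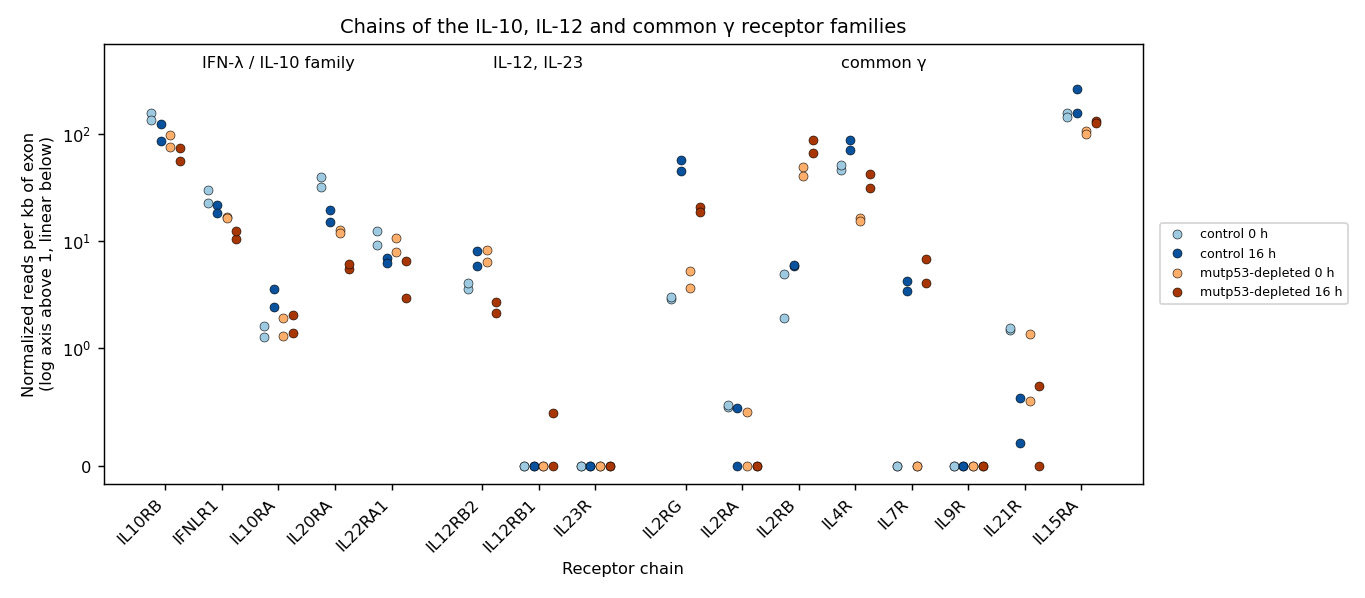
Normalized reads per kb of exon (log axis above 1, linear below) of IL10RB, IL12RB2, IL2RG and IL15RA and of other chains of the same receptor families, with 1 point per library. IL12RB1, IL23R and IL9R are at or near 0 in all groups, IL7R appears at 16 h only, and IL2RB is higher in the mutp53-depleted libraries than in the control libraries.

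Of the 41 other receptor chains in the list 23 were tested. TNF-α raised 2 and lowered 1 in the control line and raised 4 and lowered 2 in mutp53-depleted cells, with medians of 0.05 and -0.05, where 2.97% and 4.27% of all tested genes were called higher and lower in the control line and 1.86% and 4.50% in mutp53-depleted cells. IL7R is counted as raised in both lines, but it passed the filter only through the 16 h libraries, so a difference was built into its presence. Depletion raised 3 and lowered 7 at 0 h and raised 2 and lowered 7 at 16 h, with medians of -0.44 and -0.40, beside 5.89% higher and 9.55% lower of all genes at 0 h and 5.03% and 10.2% at 16 h. IL17RB, a receptor chain for IL-25, was lower by depletion at -2.25 ± 0.18 and -3.00 ± 0.18, and IL27RA (-1.54 ± 0.10 and -1.41 ± 0.10) and the inhibitory receptor SIGIRR (-1.43 ± 0.10 and -1.38 ± 0.10) were lower as well. IL1RAPL1 was called higher at both times, at 3.76 ± 0.34 at 0 h.

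Of 17 kinases, STATs and adaptors that act below these receptors 16 were tested, and TNF-α raised STAT5A (3.05 ± 0.19 in control and 2.45 ± 0.19 in mutp53-depleted cells) and IRAK2 (4.44 ± 0.36 and 3.99 ± 0.36). IRAK2, a kinase of the IL-1 and IL-18 receptor branch, was lower with depletion at both times (-1.90 ± 0.36 and -2.35 ± 0.36), and STAT6 was higher at 0 h (1.47 ± 0.07). The log2 differences of JAK1 and TYK2 lay between -0.33 and 0.37 over the 5 contrasts, and the medians of the list lay between -0.14 and 0.11. Of 8 negative regulators, SOCS1, a feedback inhibitor of JAK kinases, and USP18, an inhibitor at IFNAR2, were called lower with TNF-α in control cells, where 4.27% of all genes were. USP18 had 10 and 3 reads in the control line at 0 h, 0 and 1 at 16 h and from 1 to 3 in the depleted libraries, and it passed the filter only through the group in which it was high. At 16 h depletion raised SOCS1 (1.58 ± 0.31) and IL18BP, the soluble decoy of IL-18 (1.04 ± 0.34), and lowered CISH (-1.33 ± 0.39).

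Of 24 interferon-stimulated genes 18 were tested. The shares of all genes called in these comparisons are those given for the other receptor chains, from 1.86% to 5.89% higher and from 4.27% to 10.2% lower. TNF-α raised 3 (IRF1, PSMB9 and TAP1) and lowered 3 (IFITM1, IFI27 and MX2) in control cells, with a median of 0.10, and raised IRF1 and lowered IFITM1 and IFI6 in mutp53-depleted cells, with a median of -0.14. Depletion raised 3 (IFI35, IFITM1 and OASL) and lowered 2 (IFI6 and IFI27) at 0 h, and raised IFI35, IFITM1 and OASL and lowered 3 (IFI6, IFI27 and TAP1) at 16 h, with medians of 0.36 and 0.01. OASL had no read in any control library, 6 and 10 reads in the depleted line at 0 h and 3 and 6 at 16 h, so that it passed the filter only through the depleted libraries and a difference was built into its presence.

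Many of these receptors are best known from lymphocytes. The 16 lymphoid and myeloid markers summed to between 47.0 and 91.8 normalized reads per library, 7 of them had no read in any library, among them PTPRC, CD3D and NKG7, and 5 were tested. ITGAM was called higher with TNF-α in both lines (0 reads to 23 and 8 in control cells, and 3 and 0 to 33 and 21 in mutp53-depleted cells). It passed the filter only through the 16 h libraries, so a difference was built into its presence. CD14 was called lower with TNF-α in the control line and CD4 higher with depletion at 0 h. The 8 epithelial markers summed to between 42729 and 70708 normalized reads. They were lower with TNF-α and lower with depletion in sum, most of which is KRT8 and KRT18. KRT8, KRT18, CDH1 and VIL1 were lower in each of these comparisons. KRT19 was higher in each, by 0.22 with TNF-α in both lines and 0.26 with depletion at both times (log2). With depletion VIL1 was at -5.49 at 0 h and -5.60 at 16 h. EPCAM was lower with depletion (-1.29 and -1.06), whereas CDX2 was not (0.12 and 0.21). CDX2 was lower with TNF-α, by -1.07 in the control line, where it was called, and by -0.98 in mutp53-depleted cells. The part of these differences in the receptor levels was not tested.

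The genes most alike to each receptor were found by Pearson's r of log2 values over the 8 libraries, which share 4 groups, for the 9 receptor genes with a mean of at least 10. IL18R1 was most like JAG1, a Notch ligand (0.996), the chemokine CCL2 (0.996) and TNF itself (0.994), and among the genes most alike to IL2RG were SDC4 (0.993) and TNF (0.991). IL18R1 and IL2RG had an r of 0.98 with each other. IFNGR1 was most like ITGAV (0.979), STEAP2 (0.976) and the chemokine CCL20 (0.973), and IFNGR2 like RILP (0.991), GPRC5B (0.988) and AP1B1 (0.985). IFNAR1 was most like TRIM29 (0.997), L1CAM (0.992) and WFDC2 (0.992), and IFNAR2 like SPINT1 (0.993), RLTPR (0.991) and PVRL2 (0.991). IFNAR1 and IFNAR2 had an r of 0.94, whereas their neighbour IL10RB had 0.50 with IFNAR1 and -0.01 with IFNGR2 and was most like MAGT1 (0.996), TSPAN6 (0.994) and PLOD1 (0.986). IL15RA was most like ATP1B1 (0.976), PDGFB (0.975) and NEURL2 (0.973), and IL12RB2 like SNORD54 (0.961), TGFBR3 (0.953) and CASP9 (0.944). These values describe the pattern over the groups and were not tested.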

How the data were processed

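The receptor genes and the gene lists were chosen with earlier results of these data known. The authors mapped 50-base single-end reads of strand-specific poly(A) libraries with STAR (HOMER and edgeR are also in the submitters' processing notes). Signal values deposited by the authors are whole reads on exons multiplied by 1 factor per library (100.00% of values within 0.1 of a whole read). Gene coordinates in the table are hg19, whereas the methods name hg38. Deposited columns of fold changes and p-values for the authors' comparisons were not used, nor were the ChIP-seq and GRO-seq experiments.

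The limma package, version 3.58.1 under R 4.3.3, compared normalized reads as log2(value + 1) in a model of 4 group means over 8 libraries. Benjamini-Hochberg adjustment covered all 14800 genes, and the interaction needed no 2-fold change. The procedure was tested on simulated data.

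Named genes were the 10 receptors, called genes of each list (up to 8 with the largest change), tested genes within 500 kb of the cluster and the 3 most alike genes per receptor, of which some are not reported here. Genes named at 0 reads, as not called or as partner chains were named after their values were seen. Exact intervals (95%) are of read counts. Alternatives were median-ratio scaling, a minimum mean of 10 or no minimum, pseudocounts of 5 and 0.1, a replicate block, edgeR 4.0.16 and DESeq2 1.42.0 on recovered reads, removal of the median of 25 neighbours on each side, and leaving out each library. Promoter letters came from RefSeq windows (GRCh38.p14).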

Additional observations from a re-analysis of the deposited data

Results flagged for a closer look

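The effect of mutp53 depletion differed between 0 and 16 h for 4 genes of the lists, by limma's test of the difference itself. Of all 14800 genes 2.21% had a called difference below 0 and 0.655% above 0. The 4 were 1 of 23 tested other receptor chains, 2 of 16 kinases, STATs and adaptors and 1 of 18 interferon-stimulated genes. Of 7 tested ligands and 8 negative regulators 0 were called. The lists were chosen with earlier results of these data known, which the adjusted p-values do not take into account. Alternatives are not reported for these 4 genes. IL12RB2 had -2.33 on the log2 scale, with more reads in mutp53-depleted than in control cells at 0 h and fewer at 16 h. It was chosen as lower at 16 h without being called so at 0 h, so its value is a description with no test. STAT6, which acts below the IL-4 receptor, had -0.70 ± 0.10 (SE, limma adjusted p = 4.8e-04), from a depletion difference of 1.47 at 0 h to 0.77 at 16 h. STAT2, a component of the type I interferon response, had -0.58 ± 0.14 (limma adjusted p = 0.031), from 0.08 to -0.50. IRF1, an interferon-stimulated transcription factor, had -0.53 ± 0.13 (limma adjusted p = 0.038), from 0.53 to 0.01. IL6ST, the shared chain gp130, had -0.46 ± 0.11 (limma adjusted p = 0.021), from 0.17 to -0.29.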

How the results depend on the processing

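Over 17 alternatives to each of the 50 receptor values (16 for IL18RAP, which a mean of at least 10 leaves out), 835 of 845 kept their sign, and the others were those of IL18RAP, of the interaction of IL10RB and IL15RA, and of IFNGR2 with depletion at 0 h. The number of receptor genes called by TNF-α, in either line, and by depletion at 0 h stayed within 1.5 times its value under every alternative run. The number lower with depletion at 16 h (5) was 3 with a pseudocount of 0.1 and between 2 and 6 with a library left out. The number called by the interaction (1) was 0 with DESeq2 (with no adjusted p for IL12RB2), 2 with edgeR, 3 with a pseudocount of 5, 2 with the replicate block and between 0 and 2 with a library left out. The replicate block changed no other count by more than 1.5 times. Same-lettered libraries correlated at -0.02 to 0.07 in their deviations from the group means, with 2 letters only, so the letters were not taken as pairs.

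The cluster median less that of the receptors elsewhere kept its sign throughout, which supports nothing, since most genes behind the choice are receptors elsewhere. For TNF-α in control cells (-1.82) it was -2.29 with DESeq2 and with edgeR, -0.86 with a mean of at least 10, -2.26 with a pseudocount of 0.1 and -1.01 with one of 5. For depletion at 0 h (-0.82) it was -0.86 with DESeq2 and with edgeR, -1.08 with a mean of at least 10, -0.33 with the neighbourhood removed, -0.90 with a pseudocount of 0.1 and -0.72 with one of 5, and between -0.88 and -0.70 with a library left out. For depletion at 16 h (0.41) it was 0.80 with the neighbourhood removed and between 0.11 and 0.56 with a library left out. For the interaction (1.38) it was 0.92 with DESeq2, 0.91 with edgeR and 0.87 with a pseudocount of 5, and between 0.53 and 1.67 with a library left out. The cause of these changes was not tested.

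With 2 libraries per group, and with 1 where a library was left out, the lone library is assumed to vary like the others. IL18RAP and, at 0 h, IL18R1 rest on so few reads that their size depends on the pseudocount.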
